A study of Mus musculus with 72 samples.

Results

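The odour-sensing epithelium of the nose, labelled olfactory epithelium, was compared between postnatal day 14 (P14) and P1 in mice of the ectopicFzd1 line that received doxycycline (DOX) from P0. Libraries were taken by the genotype, drug and age in their labels, which gave 3 at P14 and 3 at P1, 6 of the 72 libraries of the series. All mice of both groups carried Omp-IRES-tTA, in which the tetracycline-controlled activator tTA is placed under Omp, the gene of olfactory marker protein. They also carried tetO-Fzd1-IRES-tdTomato (the titles say het, with no allele named), a target of tTA that encodes the Wnt receptor Fzd1 and the fluorescent protein tdTomato. tTA is made in cells that express Omp, which are mature olfactory sensory neurons, and DOX keeps it from its target, so the construct was meant to be silent at both ages. DOX began at P0 for both ages, so age cannot be told apart from time on DOX. In the ectopicFzd1 line, age also cannot be told apart from time since the construct was meant to be silenced. Control mice with DOX from P0 carried Omp-IRES-tTA without the tetO construct and gave 3 libraries at P14 and 3 at P1. The ectopicFzd1 line with DOX at P3, P7 and P10, again with 3 libraries per age, gave the course in between. The labels do not say whether libraries of a group came from separate animals, so the spread that p-values rest on may be technical. For tests of single genes that spread was taken from within the groups of all 72 libraries, not from the compared libraries alone.

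The olfactory epithelium is built and renewed from basal stem cells, whose dividing descendants become immature and then mature sensory neurons. Each mature neuron expresses a single odorant receptor gene and carries cilia in which receptors signal through a G protein, adenylyl cyclase and a cyclic nucleotide-gated channel. Sustentacular cells surround the neurons and hold enzymes that break down inhaled chemicals, Bowman's glands and other nasal glands secrete lipocalins and mucus, and the nasal capsule below changes from cartilage toward bone after birth.

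Fzd1 (ENSMUSG00000044674, mm10 chromosome 5, 4753839 to 4758035), the gene the construct carries, had 34.1, 37.4 and 34.6 CPM at P14, against 54.5, 64.0 and 62.6 CPM at P1. It was lower in all 3 libraries at P14 than in any at P1, but the difference was not called (log2 fold change −0.77, SE 0.43, adjusted p = 0.171, edgeR's quasi-likelihood test). It was called lower with no filter (−0.80, adjusted p = 0.00902), in a fit of the 2 groups alone (−0.71, adjusted p = 0.00987) and with limma on log2(TPM + 1) (adjusted p = 0.00475) and log2(TPM + 0.1) (adjusted p = 0.00905). In control with DOX it had 28.0, 22.5 and 20.7 CPM at P14 and 54.3, 47.8 and 48.1 CPM at P1, so every ectopicFzd1 library lay above every control library at both ages, at P1 by a narrow margin. CPM are counts relative to a library size scaled by TMM (trimmed mean of M-values), and an adjusted p below 0.05 over all genes tested is what is meant by called, rose or fell. Omp (ENSMUSG00000074006, mm10 chromosome 7, 98143359 to 98145502), from whose locus tTA is made, had 53.1, 63.6 and 52.7 CPM at P14, against 27.9, 26.5 and 20.6 CPM at P1, and rose (log2 fold change 1.19, SE 0.37, adjusted p = 0.00836). With limma Omp was not called on log2(TPM + 1) (0.05, adjusted p = 0.925) or log2(TPM + 0.1) (0.06, adjusted p = 0.916). The medians over all genes there were −0.71 and −0.99. The mean of Omp over 3 libraries was 28.1 ± 2.10 CPM at P3, 29.7 ± 5.30 CPM at P7 and 34.8 ± 6.14 CPM at P10 (SD, n = 3), while control with DOX had 1373, 1444 and 1072 CPM at P14 and 228, 220.0 and 218 CPM at P1. Omp was thus low in the ectopicFzd1 line with DOX at every age, with no overlap with control at either P14 or P1, and the difference of the age effects was not called (−1.36, SE 0.50, adjusted p = 0.112). How many copies of Omp-IRES-tTA the mice of each genotype carried is not in the labels, and its part in these values was not tested. All 20 genes of the list for mature olfactory sensory neurons were tested, and their summed level was 4578 to 5752 CPM at P14, against 1320 to 1919 CPM at P1. No other tissue was compared, so these levels do not test the tissue label.

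Gene counts summed to 2636892 to 4647455 per library at P14 and 3321918 to 7162773 at P1, and 19.7% to 38.4% of all reads of the 6 libraries were counted in genes. Predicted genes that resemble satellite repeats, 13 including Gm10800, took 3.28% to 27.1% of gene counts at P14 and 0.479% to 5.57% at P1, and reads outside genes made up 33.0% to 44.9% at P14 and 44.0% to 62.2% at P1. The highest value of all 72 libraries, 62.2%, was that of P1 replicate 1, whose correlations with the other 5 libraries (log2(CPM + 1), over genes) were 0.905 to 0.966. Reads that mapped to several places made up 19.9% to 27.3% at P14 and 8.97% to 13.1% at P1. Genes at ribosomal RNA loci took 0.32% to 0.625% of gene counts at P14 and 0.575% to 2.5% at P1. The part of both in the values was not tested. P14 replicate 3 held Xist at 109 CPM together with the Y-linked Ddx3y at 43.2 CPM, while the other libraries of the comparison held one of the 2 at or below 4.89 CPM. Of the control libraries with DOX at P14, replicates 2 and 3 also held both, Xist at 379 and 108 CPM and Ddx3y at 9.67 and 48.4 CPM, and the part of this in the values was not tested. P14 replicate 1 and a P10 library of the line share an ID in their titles, and their counts differed by a chi-square of 7.1 per degree of freedom, against 16.7 to 65.9 within the groups. IDs of the P14 and P1 titles belong to different number series, so age and series cannot be told apart. In bulk tissue, fewer cells of a type and less RNA per cell cannot be told apart either.

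Of 22144 genes tested, edgeR called 7610 (34.4%), of which 3238 rose (14.6%) and 4372 fell (19.7%). Counts of list members that rose or fell at P14 are read against these shares. The libraries of the groups did not overlap in 8737 genes (39.5%). Of the called genes, 1379 rose and 2079 fell by at least 1 on the log2 scale, and 27 rose and 39 fell by at least 4. Control with DOX had 8363 genes called between the same ages (37.8%), with 17.1% of all genes higher and 20.7% lower. The difference of the age effects, ectopicFzd1 line minus control, was called in 3.5% of all genes, 1.4% above and 2.09% below 0. List members called in control or in the difference are read against these shares. Genes called higher in both genotypes numbered 2156, which is 66.6% of those of the ectopicFzd1 line and 56.9% of those of control, and 2784 were called lower in both, 63.7% and 60.9%. Only 67 genes were called in opposite directions. With size factors of DESeq2 in edgeR 48.2% of called genes were higher, against 42.5% with TMM, and on the deposited TPM scale, log2(TPM + 1) in limma, 2.38% were, with a median over all genes of −0.71 in place of 0.01. On that scale the small RNAs Rn7s1, Rn7s2 and Rn7sk held 26.7% to 60.1% of all TPM in the 6 libraries. Values given below for the TPM scale are on log2(TPM + 1) and are read against that shift.

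Of the 12 largest rises 8 were in lipocalin, odorant-binding protein, chitinase-like and BPIF genes, which encode secreted proteins. The 12 were taken by size among called genes with a mean of at least 2 CPM and no overlap between the groups. Symbols of predicted genes, clones, pseudogenes and odorant or vomeronasal receptors were left out. As log2 fold changes the 12 were Lcn4 (8.88), Chil4 (8.28), Obp1b (7.83), Obp2b (7.8), Obp1a (6.97), Lcn3 (6.28), Srd5a2 (5.52), Moxd2 (4.95), the multicopy RNA gene Rprl2 (4.85), Chil6 (4.49), Bpifb3 (4.23) and Bglap (4.18). The 12 largest falls by the same rule, 6 of them in the cartilage list, were Clec3a, Snorc (−6.5), Col2a1 (−6.39), Matn1 (−5.99), Matn3 (−5.89), Hapln1 (−5.72), Agtr2 (−5.58), Krt6a (−5.01), Rtl3 (−4.97), Ucma (−4.83), Hrnr (−4.74) and Dnase1 (−4.55). Clec3a had no count at P14 and 4.27, 7.02 and 8.62 CPM at P1, which makes it at least 24.4-fold lower at P14, against a floor of 3 counts over the P14 group. Srd5a2, which encodes a steroid 5-alpha-reductase, had 96.4, 86.5 and 64.8 CPM at P14, against 2.01, 1.63 and 1.81 CPM at P1, and no P1 library came near a P14 library. Agtr2, the gene of the angiotensin II type 2 receptor, had 1.25, 0.213 and 0.432 CPM at P14, against 12.1, 34.7 and 46.3 CPM at P1.

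**Figure D1:**
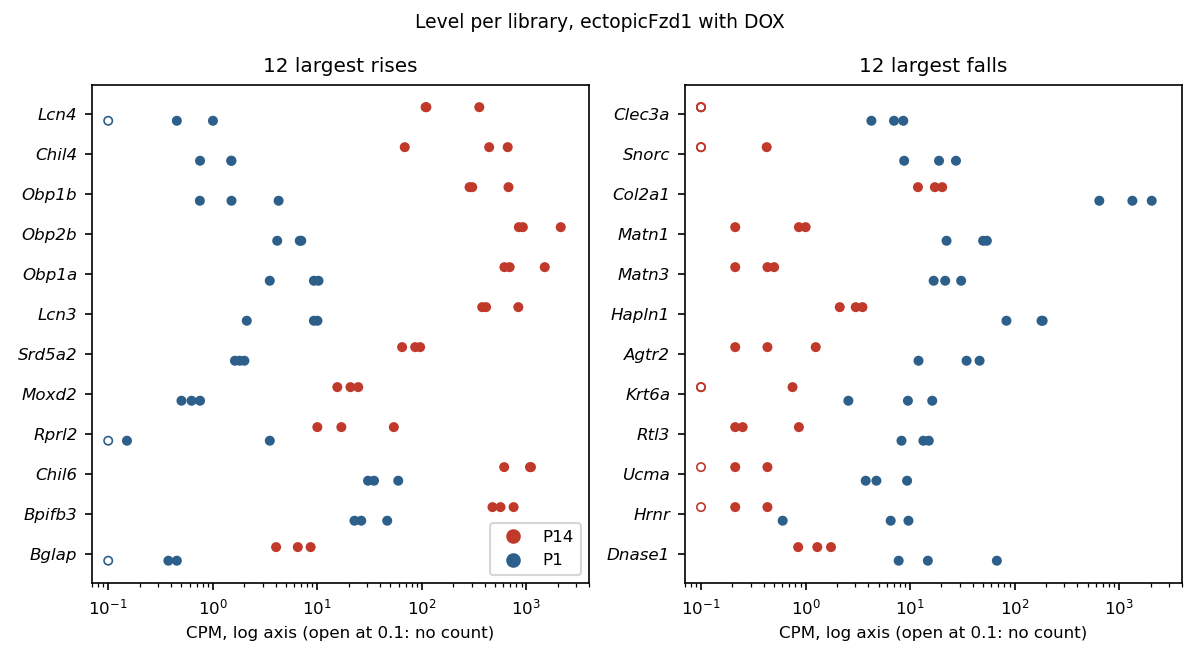
Level of the 12 largest rises and 12 largest falls in each library of the ectopicFzd1 line with DOX, as CPM on a log axis; each point is 1 library, P14 in red above P1 in blue, and open points at 0.1 had no count. P14 and P1 do not overlap in any of the 24 genes, since that was a condition for naming them.

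**Figure D2:**
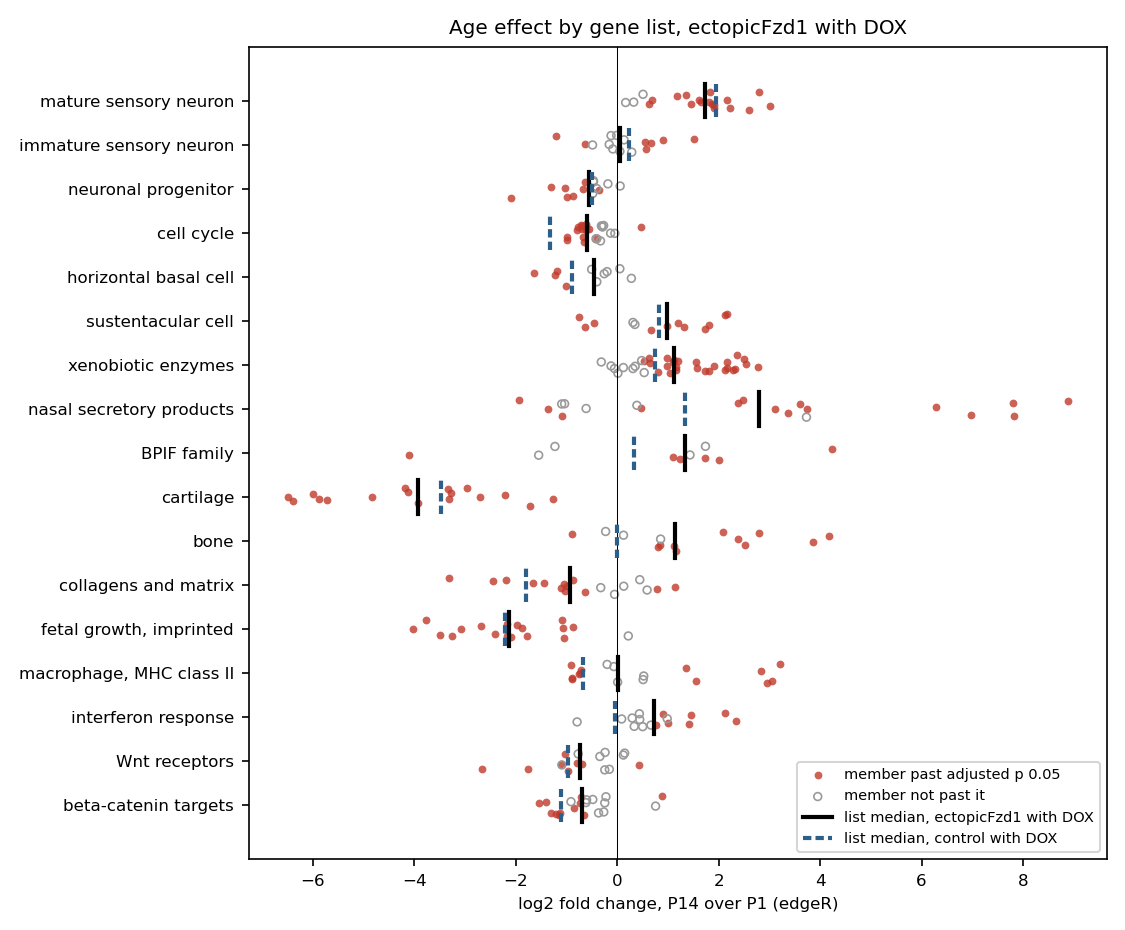
Log2 fold change, P14 over P1, of every tested member of 17 gene lists in the ectopicFzd1 line with DOX (points; filled where called) with the list median in black and the median of the same genes in control with DOX as a dashed blue line. All 17 cartilage genes lie below 0, and the nasal secretory list has the highest median, 2.79, with mature neurons next at 1.73.

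Markers of mature olfactory sensory neurons were higher at P14. Of 20 tested, 17 rose and none fell, against 14.6% and 19.7% of all genes, and the median was 1.73, against 0.01 over all genes (0.56 on the TPM scale, where 8 rose). Stoml3, which encodes a stomatin-like protein of the cilia, had 469, 743 and 628 CPM at P14, against 36.7, 91.2 and 97.8 CPM at P1 (log2 fold change 3.02, SE 0.32, adjusted p = 3.24e-11). Cnga4 (2.8, SE 0.26) and Cnga2 (2.22, SE 0.25), subunits of the cyclic nucleotide-gated channel, rose too. P1 replicate 1 had the lowest level of all 3 genes, and no P1 library reached a P14 library. The G protein gene Gnal (1.65), the cyclase gene Adcy3 (1.62) and the receptor-transporting protein genes Rtp1 (1.45) and Rtp2 (1.81) rose, while Slc24a4 (0.16, adjusted p = 0.503), Ebf2 (0.32, adjusted p = 0.182) and Gfy (0.51, adjusted p = 0.158) were not called. In control with DOX 19 of the 20 rose, with a median of 1.94, against 17.1% of all genes called higher there. The age effects differed by a call in Pde4a alone, the gene of a cyclic AMP phosphodiesterase (0.62 in the ectopicFzd1 line, 2.14 in control; difference −1.52, adjusted p = 0.00939). Pde4a had 35.2, 43.8 and 24.6 CPM at P1 in the ectopicFzd1 line, against 13.4, 14.7 and 16.2 CPM at P1 in control.

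Of 978 odorant receptor genes tested, from 1407 in the count table, 346 rose and 4 fell at P14 in counts scaled by TMM, and 628 were not called. Among all genes 14.6% rose and 19.7% fell. The receptors' log2 fold change was above 0 in 873, with a median of 1.09, and the groups did not overlap in 464, where 39.5% of all genes did not. On the TPM scale 77 rose and 62 fell, with a median of 0.000567, and after rescaling the TPM by size factors 175 rose and 1 fell. Without P1 replicate 2 the count that rose was 229, in a fit of the 2 groups alone it was 206, and the count that fell was 2 without any 1 of the libraries but P14 replicate 3 and P1 replicate 2. The largest rises were in Olfr175-ps1 (4.31), Olfr1118 (4.3), Olfr1228 (3.73) and Olfr1257 (3.7). Olfr1228 had 8.52, 5.31 and 6.05 CPM at P14, against 0, 0.878 and 0.302 CPM at P1. The 4 that fell were Olfr513 (−2.92), Olfr545 (−2.03), Olfr578 (−1.25) and Olfr769 (−1.19). Olfr513 had 0.250, 1.28 and 0 CPM at P14, against 1.004, 5.39 and 7.56 CPM at P1, and P1 replicate 1 lay below P14 replicate 2. Values of single receptors are uncertain where copies share reads. In control with DOX 466 rose and 3 fell, with a median of 1.25, where 17.1% of all genes rose and 20.7% fell. The difference of the age effects was called in 3 receptors, 1 above and 2 below 0, where 3.5% of all genes were called. That count was 2 with DESeq2, both above 0, and 0 without P14 replicate 2 or P1 replicate 1 of the ectopicFzd1 line or P1 replicate 1 of control, and 7 without P1 replicate 3 of the ectopicFzd1 line.

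Odorant receptors took 0.256%, 0.261% and 0.273% of gene counts at P14, against 0.179%, 0.116% and 0.142% at P1. The mean was 0.263% ± 0.00854 at P14 and 0.146% ± 0.0317 at P1 (SD, n = 3 each), and no library of one age reached the other (exact permutation test, 2-sided, p = 0.1, the smallest that 3 against 3 allows). At the ages between, the mean share was 0.296% at P3, 0.270% at P7 and 0.287% at P10, and the libraries at P3 overlapped those at P14. Control with DOX had 0.424%, 0.487% and 0.377% at P14 and 0.221%, 0.192% and 0.213% at P1, and at P14 and at P1 every library of the ectopicFzd1 line lay below every control library (exact permutation test, 2-sided, p = 0.1 at each age). This did not hold at each age between. At P3 the ectopicFzd1 line had 0.246%, 0.315% and 0.329% and control 0.299%, 0.258% and 0.221%, and at P7 the ectopicFzd1 line had 0.254%, 0.241% and 0.315% and control 0.324%, 0.247% and 0.270%, so the genotypes overlapped, while at P10 the ectopicFzd1 line had 0.284%, 0.302% and 0.277% and control 0.454%, 0.435% and 0.400%. As a share of all TPM, receptors took 0.0521% ± 0.00143 at P14 and 0.0521% ± 0.0162 at P1 (SD, n = 3 each), and the libraries of the ages overlapped. The 95% Wilson intervals of the shares of single libraries, which cover counting error only, were narrower than the spread at P1, with 0.2512% to 0.2609% for P14 replicate 1.

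**Figure D3:**
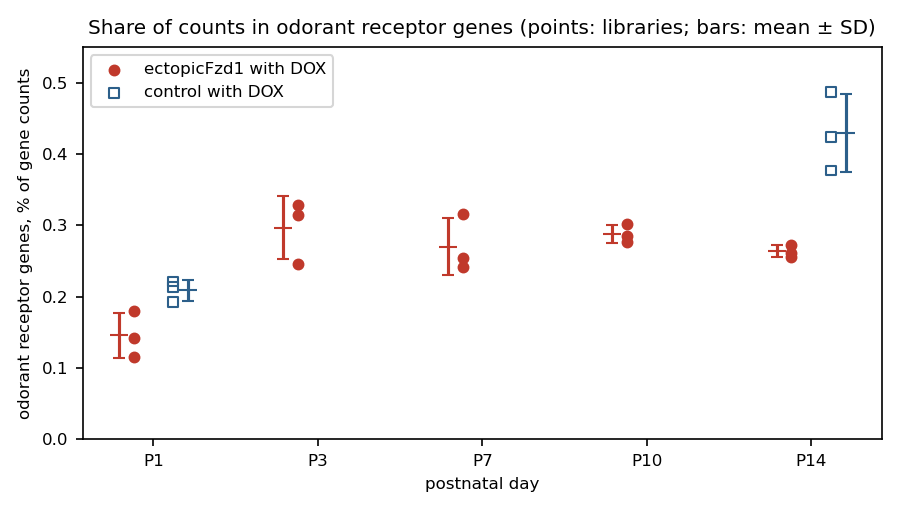
Share of gene counts, in percent, that fell in odorant receptor genes, by postnatal day; each point is 1 library, and bars give mean and SD of 3. ectopicFzd1 with DOX (red circles) lies between 0.116% and 0.179% at P1 and between 0.241% and 0.329% at later ages, and below control with DOX (blue squares) at P1 and P14, the ages at which control is drawn; at P3 and P7, where control is not drawn, the genotypes overlapped.

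Immature neuron markers did not move together, with 5 of 15 higher, 2 lower and a median of 0.05 that turned to −1.02 on the TPM scale and to −0.08 without P1 replicate 1. The number that rose was 1 without P1 replicate 1, 2 without P14 replicate 1 and 3 without P14 replicate 2. Stmn4, a stathmin of growing neurites, rose (1.51) and had 42.3, 42.1 and 42.8 CPM at P14, against 11.8, 16.3 and 15.7 CPM at P1. Gap43, the growth-associated protein gene of extending axons, rose (0.91, but −0.07 on the TPM scale), while Dpysl5, a collapsin response mediator gene, fell (−1.21). Of 10 activity-dependent genes 4 rose and 2 fell, where 14.6% of all genes rose and 19.7% fell. S100a5, a calcium-binding protein gene whose level in sensory neurons follows their activity, had 151, 275 and 184 CPM at P14, against 2.76, 22.7 and 19.5 CPM at P1 (log2 fold change 3.68, SE 0.47, adjusted p = 6.77e-09). The neuronal activity-linked genes Kirrel2 (2.6), Lrrc3b (1.69) and Pcp4l1 (1.48) rose with it. The immediate early genes Egr1 (−1.34) and Nr4a1 (−1.1) fell, and Fos did not pass the test (−0.47, adjusted p = 0.602). The number that fell was 0 without P14 replicates 1 or 2 or P1 replicate 2, and 1 without P14 replicate 3 or P1 replicate 3. In Egr1, Nr4a1 and Fos the age effect lay below that of control, with differences of −2.93, −1.98 and −2.8 on the log2 scale (adjusted p = 0.00511, 0.0362 and 0.0365). These 3 calls became 1 without P14 replicates 1 or 3 or P1 replicate 2 of the ectopicFzd1 line, without P1 replicate 3 or P14 replicate 3 of control, and in a fit of the 4 groups alone.

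Of 24 axon guidance and sorting genes, 7 rose and 8 fell, where 14.6% of all genes rose and 19.7% fell. Nphs1 (2.77) and Kirrel2, which encode adhesion proteins of the nephrin family, and the cell adhesion gene Ncam2 (1.26) were the largest rises, and the ephrin gene Efna5 (−1.48), with 15.0, 15.9 and 24.6 CPM at P14, against 64.3, 59.5 and 27.7 CPM at P1, was the largest fall. Of 20 transcription factors and regulators of receptor choice 7 fell and 1 rose. The 3 nuclear factor I genes fell together, Nfia by 1.32, Nfix by 1.28 and Nfib by 1.02, and so did the chromatin remodeller gene Bptf (−0.96), while Atf5, an effector of the unfolded protein response in these neurons, rose (0.87). Of 10 zone genes 3 rose and 4 fell, with a median of −0.325. The dorsal-zone genes Acsm4 (1.82) and Nqo1 (0.70) rose with the ventral-zone gene Ncam2, and the 4 that fell were the nuclear factor I genes and Nrp2 (−0.38).

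Most enzymes of xenobiotic metabolism, a task of sustentacular cells, rose. Of 35 tested genes of xenobiotic metabolism 26 rose and none fell, with a median of 1.12 (0.07 on the TPM scale). Cyp2g1, a cytochrome P450 of the olfactory mucosa, had 3394, 4124 and 3483 CPM at P14, against 577, 994.5 and 951 CPM at P1 (log2 fold change 2.12, SE 0.27, adjusted p = 4.49e-09). The P450 gene Cyp2a4 (2.54), the carboxylesterase gene Ces1f (2.49) and the P450 gene Cyp2e1 (2.36) were among the larger rises, and Cyp2a4 and Cyp2a5 are close copies whose reads can be shared. In control with DOX 23 rose and none fell, with a median of 0.74, and the difference of the age effects was called in 0 of the 35 by edgeR (7 at an unadjusted p below 0.05, 2 called by DESeq2), where 3.5% of all genes were called. Of 13 sustentacular markers 8 rose and 3 fell. Cyp1a2 (2.16), Sult1c1 (1.81) and Cyp2a5 (1.72) rose most beside Cyp2g1, and the mucin gene Muc2 (−0.76) and the Notch receptor gene Notch2 (−0.64) were among those that fell. The number that fell was 1 without P14 replicate 1, P1 replicate 1 or P1 replicate 2.

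Of 11 markers of microvillar cells and ionocytes 6 rose and 1 fell, with a median of 0.42 (−0.31 on the TPM scale). Over all genes 14.6% rose and 19.7% fell. Coch (1.86), Avil (1.4) and Hepacam2 (1.31) rose and Itpr3 fell (−1.44). Markers of multiciliated respiratory cells had no common direction, with 4 of 17 higher, 2 when 1 of 5 libraries was left out (P14 replicates 1 and 2 and the 3 of P1), and 5 lower, 2 or 3 without P14 replicates 1 or 3 or P1 replicates 2 or 3, among them the axonemal dynein genes Dnah9 (−0.94) and Dnah5 (−0.82). The median of this list was 0.04, and −0.91 on the TPM scale. Of 8 goblet and club cell markers 3 rose, Clca1 (3.19), Bpifa1 (1.1) and Agr2 (0.99), of which Bpifa1 and Agr2 turned below 0 on the TPM scale. Clca1 was not called on the TPM scale, in a fit of the 2 groups alone or with the satellite-like share as a covariate. Nor was Clca1 called without P14 replicate 3 or P1 replicates 1 or 2.

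Nasal gland products had the highest median of the gene lists. Of 20 tested genes of the list 12 rose and 3 fell, with a median of 2.79 (1.80 on the TPM scale). The list holds lipocalins, small carriers of hydrophobic molecules, among them the odorant-binding protein genes Obp1a and Obp1b on chromosome X and Obp2a and Obp2b on chromosome 2. Their RefSeq promoter windows (GRCm38.p6, 250 bases before to 50 after the annotated start, 5′ to 3′ on the gene's strand) are shown because these neighbours rose together, with TATAAA, the TATA box, in capitals. They lie at chr2:25736757-25737056 on the plus strand (Obp2b), chr2:25699824-25700123 on the plus strand (Obp2a), chrX:78091325-78091624 on the minus strand (Obp1a) and chrX:78186558-78186857 on the plus strand (Obp1b).
Obp2b: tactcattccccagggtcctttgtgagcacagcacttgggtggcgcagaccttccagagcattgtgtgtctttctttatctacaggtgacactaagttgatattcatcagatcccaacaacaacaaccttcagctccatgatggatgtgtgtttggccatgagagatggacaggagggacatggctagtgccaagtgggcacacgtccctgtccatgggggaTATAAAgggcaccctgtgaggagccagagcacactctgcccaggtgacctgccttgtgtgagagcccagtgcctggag
Obp2a: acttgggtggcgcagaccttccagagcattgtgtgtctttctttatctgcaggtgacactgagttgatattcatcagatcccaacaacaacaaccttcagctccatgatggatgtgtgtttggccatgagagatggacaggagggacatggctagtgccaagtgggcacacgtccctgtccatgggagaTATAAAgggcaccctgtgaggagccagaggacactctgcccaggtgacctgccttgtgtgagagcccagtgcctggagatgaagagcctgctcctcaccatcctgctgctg
Obp1a: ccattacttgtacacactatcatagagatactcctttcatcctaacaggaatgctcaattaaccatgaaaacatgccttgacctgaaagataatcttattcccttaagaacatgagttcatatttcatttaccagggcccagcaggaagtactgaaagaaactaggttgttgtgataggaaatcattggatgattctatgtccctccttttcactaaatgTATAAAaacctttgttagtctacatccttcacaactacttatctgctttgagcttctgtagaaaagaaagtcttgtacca
Obp1b: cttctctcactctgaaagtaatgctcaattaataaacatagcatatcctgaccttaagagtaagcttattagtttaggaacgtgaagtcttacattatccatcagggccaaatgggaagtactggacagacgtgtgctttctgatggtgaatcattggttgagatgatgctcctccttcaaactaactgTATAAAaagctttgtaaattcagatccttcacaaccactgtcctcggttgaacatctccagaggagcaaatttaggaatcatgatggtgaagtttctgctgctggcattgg
The first base of TATAAA stood at position −28 from the annotated start in Obp2b, −30 in Obp1a and −61 in Obp2a and Obp1b. TATAAA on either strand occurred in 9 of 17 genes of the list with a window (52.9%), against 15.7% of 27025 genes, a motif chosen after the sequences were seen. The aligned windows of Obp2a and Obp2b were identical at 263 of 267 bases (98.5%), with 66 gap bases. Those of Obp1a and Obp1b were identical at 188 of 263 (71.5%), with 74 gap bases. The windows lie mostly before the start, so they do not show how alike the transcripts are. Whether reads of these copies were shared was not tested, so single values of these genes are uncertain.

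Obp2b (ENSMUSG00000079539, mm10 chromosome 2, 25737009 to 25740097) had 2137, 849 and 927 CPM at P14, against 7.03, 4.14 and 6.80 CPM at P1 (log2 fold change 7.8, SE 0.77, adjusted p = 6.66e-12). All P14 libraries lay far above P1, with replicate 1 highest. Obp2a had 1864, 863 and 810.0 CPM at P14, against 29.4, 66.6 and 312 CPM at P1 (3.11), with P1 replicate 3 well above the other P1 libraries. Obp1a had 693, 1502 and 618 CPM at P14, against 9.29, 3.51 and 10.3 CPM at P1 (6.97), and here P14 replicate 2 was highest, as it was for Obp1b (7.83). The lipocalin genes Lcn3 (6.28) and Lcn4 (8.88), by contrast, were highest in P14 replicate 1, with 355, 109 and 111 CPM at P14, against 1.004, 0 and 0.454 CPM at P1 for Lcn4. Scgb1c1, a secretoglobin gene of the olfactory mucosa (3.36), the innate defence gene Dmbt1 (3.61), the glutathione peroxidase gene Gpx6 (2.39) and Vmo1 (2.47) also rose. The 3 that fell were Car6 (−1.95), which encodes a secreted carbonic anhydrase, the mucin gene Muc5b (−1.37) and Sox10 (−1.1), a transcription factor of glands and glia.

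In control with DOX 11 of the 20 rose and 6 fell. The difference of the age effects was called in 2, both above 0. That count was 9 with no filter and 0 on the TPM scale, without both libraries of the shared ID, without P14 replicates 1 or 2 or P1 replicates 1 or 2 of the ectopicFzd1 line, and without P14 replicates 2 or 3 or P1 replicates 1 or 2 of control, and it was 1 without P14 replicate 3 of the ectopicFzd1 line or P14 replicate 1 or P1 replicate 3 of control. Mup5, a major urinary protein gene with near-identical copies, had 68.6, 199.8 and 168 CPM at P14, against 9.54, 7.90 and 15.3 CPM at P1 in the ectopicFzd1 line, and 2.76, 2.61 and 4.66 CPM at P14 and 10.1, 19.3 and 14.1 CPM at P1 in control (difference 5.86, adjusted p = 0.049). Ltf, the lactoferrin gene, did not pass the test in the ectopicFzd1 line (0.39, adjusted p = 0.575) and fell in control (−1.88; difference 2.27, adjusted p = 0.0467). In the BPIF family of secreted lipid-binding proteins 5 of 10 rose and 1 fell, with a median of 1.33 that was −0.02 on the TPM scale. Bpifb3 had 756, 567 and 475 CPM at P14, against 26.4, 22.7 and 46.7 CPM at P1 (4.23). Bpifb5 had 70.9, 98.4 and 101 CPM at P14, against 989, 1313 and 2347 CPM at P1, a fall of 4.11 on the log2 scale with an SE of 1.09. The 2 genes thus moved in opposite directions, with no overlap between the ages in either.

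Chitinase-like genes rose and lysozyme genes did not. Chil4 had 441, 664 and 68.7 CPM at P14, against 1.51, 1.51 and 0.756 CPM at P1 (log2 fold change 8.28, SE 1.31, adjusted p = 8.56e-07), and its 3 P14 libraries ranged widely, with replicate 3 lowest. Chil6 (4.49), Chil3 (3.06) and Chil1 (1.71) rose, and so did Pigr (1.81), the receptor that carries immunoglobulin A into secretions. Lyz1 fell (−3.38), as did the angiogenin gene Ang (−2.15) and the chitinase gene Chit1 (−1.93), while Lyz2 was not called (−0.50, adjusted p = 0.221). Of 20 defence genes 5 rose and 3 fell, where 14.6% of all genes rose and 19.7% fell, with a median of 0.16 (−0.90 on the TPM scale). The number that rose was 2 without P14 replicate 2 and 3 without P1 replicate 1 or 2, and 1 fell without P14 replicate 1.

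Cartilage genes fell without exception among those listed. All 17 were called lower, with a median of −3.94 (−3.87 on the TPM scale), and in none did the libraries of the ages overlap. Col2a1 (ENSMUSG00000022483, mm10 chromosome 15, 97975602 to 98004695), the main collagen of cartilage, had 17.3, 11.9 and 20.3 CPM at P14, against 2054, 1341 and 647 CPM at P1 (log2 fold change −6.39, SE 0.32, adjusted p = 2.83e-23). Acan, the gene of the proteoglycan aggrecan, had 29.8, 19.8 and 25.9 CPM at P14, against 519, 472 and 371 CPM at P1 (−4.18). The matrilin genes Matn1 (−5.99) and Matn3 (−5.89) and the link protein gene Hapln1 (−5.72) were each at or below 3.51 CPM in every P14 library, and Sox9, the transcription factor of chondrocytes, fell least but for Matn4 (−1.73 and −1.27). The summed level of the list was 168.4 to 210.9 CPM at P14 and 2428 to 3921 CPM at P1 in the ectopicFzd1 line, and 173.9 to 182.7 CPM at P14 and 1645 to 1903 CPM at P1 in control with DOX, where all 17 fell too. The difference of the age effects was called in Col9a2 (−1.14, adjusted p = 0.00274), whose fall was −3.33 in the ectopicFzd1 line and −2.2 in control. How much cartilage was taken with the epithelium at each age is not in the labels, and its part in these values was not tested.

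Bone genes mostly rose. Of 14 tested 10 rose and 1 fell, with a median of 1.14 (−0.04 on the TPM scale, 0.96 after rescaling the TPM by size factors). The osteocalcin genes Bglap (4.18) and Bglap2 (3.86), which are near-identical copies, and Dmp1 (2.8), an osteocyte gene, had the largest rises. Mmp13, which encodes a collagenase of cartilage and bone turnover, had 58.9, 35.5 and 79.1 CPM at P14, against 8.79, 10.8 and 9.68 CPM at P1 (log2 fold change 2.52, SE 0.38, adjusted p = 2.46e-07). Runx2, the transcription factor of osteoblasts, fell (−0.89). In control with DOX 3 rose and 3 fell, with a median of −0.01, where 17.1% of all genes rose and 20.7% fell. The difference of the age effects was called in 4, all above 0, where 1.4% of all genes were called above 0. These were Mmp13 (2.13), Spp1 (2.2), the osteopontin gene, Ibsp (2.05), the bone sialoprotein gene, and Ctsk (1.66), the osteoclast protease gene cathepsin K. The count was 2 without P1 replicate 1 of the ectopicFzd1 line, 6 with DESeq2, 6 without P14 replicate 2 or P1 replicate 3 of that line and 0 on the TPM scale. At P1 Spp1 had 31.1, 27.3 and 44.0 CPM in the ectopicFzd1 line and 115, 123 and 69.1 CPM in control, while at P14 the genotypes overlapped, with 235, 99.3 and 205 CPM and 122, 139 and 88.0 CPM.

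Of 18 collagen and matrix genes 11 fell and 2 rose, with a median of −0.93. Fbn2, a fibrillin gene, had 28.8, 27.2 and 29.4 CPM at P14, against 248, 328 and 272 CPM at P1 (−3.32), and the fibronectin gene Fn1 (−2.46), the elastin gene Eln (−2.19) and Fbn1 (−1.67) fell. The proteoglycan genes Dcn (1.14) and Lum (0.78) rose, and 4 genes of the list did without P1 replicate 2. Only 1 did without P1 replicate 1 or in a fit of the 2 groups alone. Fetal growth and imprinted genes fell almost throughout, 17 of 18, with a median of −2.14 (−2.21 in control with DOX, where 17 fell). H19, a maternally expressed imprinted RNA gene, had 96.2, 84.4 and 122 CPM at P14, against 735, 1839 and 2369.6 CPM at P1 (log2 fold change −4.04, SE 0.29, adjusted p = 1.12e-16). Dlk1 (−3.77), the growth factor gene Igf2 (−3.49), the RNA-binding protein gene Igf2bp3 (−3.27) and the imprinted RNA gene Meg3 (−3.09) also fell, and Lin28b was not called (0.22, adjusted p = 0.877). For Dlk1 the P14 libraries had 1.503, 0.850 and 0.432 CPM and the P1 libraries 13.6, 14.4 and 13.6 CPM. The difference of the age effects was called in 0 of the 18 by edgeR (4 at an unadjusted p below 0.05, 0 called by DESeq2).

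Of 14 genes of neuronal progenitors tested 8 fell and none rose, with a median of −0.56, where 19.7% of all genes fell and 14.6% rose. Cdkn1c, an imprinted inhibitor of cyclin-dependent kinases, fell most (−2.1), with 24.3, 16.2 and 22.5 CPM at P14, against 43.7, 102 and 118 CPM at P1. Kit (−1.32), the receptor of stem cell factor, Eya2 (−1.04), Gadd45g (−0.99) and the neurogenic factor gene Neurod1 (−0.64) fell. The proneural factor gene Neurog1 (−0.41, adjusted p = 0.385) was not called. Of 10 markers of horizontal basal cells, the reserve stem cells, 4 fell and none rose, the integrin gene Itgb4 (−1.64) and the hemidesmosome collagen gene Col17a1 (−1.23) most, and the keratin genes Krt5 (−0.26) and Krt14 (0.05) were not called. The number that fell was 2 without P14 replicate 1 or P1 replicate 2.

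Cell cycle genes mostly fell, and in 10 of them the age effect lay above that in control. Of 24 tested 14 fell and 1 rose, with a median of −0.59, while in control with DOX 23 fell, with a median of −1.34, against 20.7% of all genes called lower there. Of the 24, 9 fell without P1 replicate 3, and 4 fell in a fit of the 2 groups alone. Mki67, a marker of dividing cells, had 130.0, 145 and 149.99 CPM at P14, against 217, 306 and 215 CPM at P1 (log2 fold change −0.80, SE 0.17, adjusted p = 0.000186). In control it had 115, 115 and 132 CPM at P14 and 373, 418 and 383 CPM at P1 (−1.7), so that the genotypes lay closer together at P14 than at P1, where they did not overlap. Foxm1, a transcription factor of mitotic genes, fell by 0.99 and by 2.03 on the log2 scale in the ectopicFzd1 line and in control. Pcna, the replication clamp gene, was the one that rose (0.46), and it fell in control (−0.48). The difference of the age effects was called in 10 of the 24, all above 0, where 1.4% of all genes were called above 0. Called or not, it lay above 0 in all 24, which was not particular to this list. It also did in all 18 collagen and matrix genes (3 called), 14 bone genes, 17 genes of macrophages, complement and MHC class II and 10 BPIF genes. It lay below 0 in 18 of 24 axon guidance genes and 13 of 20 mature neuron markers. Among cell cycle genes the largest difference was in Cdk1, the kinase of mitotic entry, at 1.43 (SE 0.24, adjusted p = 0.000187), with Birc5 (1.24), Ccnb2 (1.18), Foxm1 (1.04) and Ccna2 (1.04) next. Cdk1 had 28.1, 31.9 and 22.9 CPM at P14, against 26.4, 37.4 and 36.6 CPM at P1 in the ectopicFzd1 line, and 27.0, 20.6 and 22.7 CPM at P14 and 79.3, 79.2 and 71.7 CPM at P1 in control, so the P1 libraries of the genotypes were apart and those of P14 were not. The 10 calls became 3 without P1 replicate 1 of the ectopicFzd1 line, the library with the most reads outside genes, 5 without P14 replicate 1 of that line or replicate 2 of either control age, 2 in a fit of the 4 groups alone, 15 with DESeq2 and 0 on the TPM scale, and the median, 0.82, stayed between 0.50 and 0.92 in all of these.

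The promoter windows of Cdk1 and Ccnb2, the cyclin B2 gene, are shown since both stood among the largest differences in this list (RefSeq, GRCm38.p6, chr10:69352863-69353162 on the minus strand for Cdk1 and chr9:70421505-70421804 on the minus strand for Ccnb2, 5′ to 3′). Capitals mark CCAAT, the site of nuclear factor Y, or its reverse complement ATTGG, and TTTGAA, the cell cycle homology region of mitotic genes.
Cdk1: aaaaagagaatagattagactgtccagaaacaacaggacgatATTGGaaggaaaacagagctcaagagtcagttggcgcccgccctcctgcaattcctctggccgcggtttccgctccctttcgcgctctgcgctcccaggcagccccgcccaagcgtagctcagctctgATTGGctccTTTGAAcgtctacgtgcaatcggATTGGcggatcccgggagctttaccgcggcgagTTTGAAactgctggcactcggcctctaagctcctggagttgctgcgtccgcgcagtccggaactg
Ccnb2: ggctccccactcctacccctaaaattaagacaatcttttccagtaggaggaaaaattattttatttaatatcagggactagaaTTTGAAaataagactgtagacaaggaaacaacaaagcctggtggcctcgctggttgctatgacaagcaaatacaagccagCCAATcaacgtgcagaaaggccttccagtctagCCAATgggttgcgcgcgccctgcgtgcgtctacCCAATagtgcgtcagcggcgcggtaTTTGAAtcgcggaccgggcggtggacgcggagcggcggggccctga
Each window held CCAAT 3 times and TTTGAA 2 times, and the motifs did not overlap. Birc5, whose difference (1.24) lay between those of Cdk1 and Ccnb2, had neither motif in its window. CCAAT on either strand occurred in 17 of 20 genes of the list with a window (85.0%), against 41.1% of 27025 genes, and TTTGAA in 9 of 20 (45.0%), against 20.2%.

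**Figure D4:**
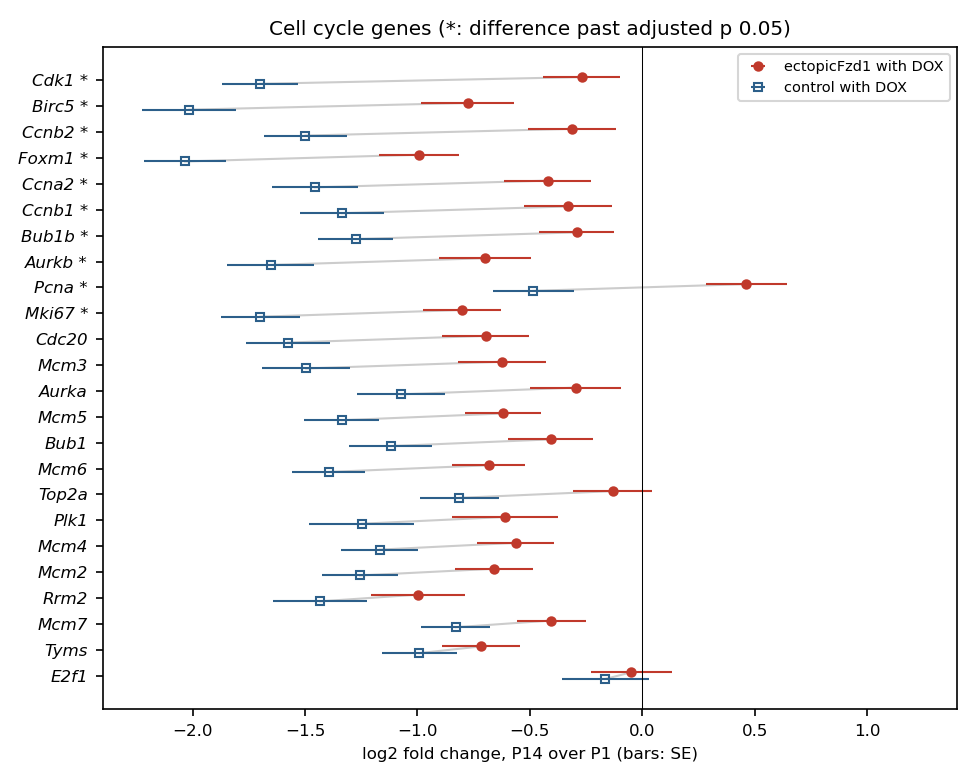
Log2 fold change, P14 over P1, of 24 cell cycle genes in ectopicFzd1 with DOX (red circles) and in control with DOX (blue squares), with SE as bars and an asterisk where the difference was called. The red points lie to the right of the blue ones in all 24 genes, and 10 carry an asterisk. All differences were also above 0 in the collagen and matrix, bone, macrophage and BPIF lists, which are not drawn here.

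Of 17 genes of macrophages, complement and MHC class II 6 rose, 6 fell and 5 were not called, with a median of 0.01 that was −0.61 on the TPM scale. Cd74, the invariant chain of MHC class II, had 26.3, 80.6 and 19.02 CPM at P14, against 4.77, 4.39 and 4.99 CPM at P1 (log2 fold change 3.2, SE 0.41, adjusted p = 7.15e-09), and H2-Ab1 (3.06), H2-Aa (2.95) and H2-Eb1 (2.84), the class II chains, rose with it. P14 replicate 2 was highest in all 4, and no P1 library reached a P14 library. Cx3cr1 (−0.91), Mrc1 (−0.90), the complement genes C1qa (−0.88), C1qb (−0.73) and C1qc (−0.75) and Csf1r (−0.71), the receptor of macrophage colony-stimulating factor, fell. The number that fell was 3 without P14 replicate 3 or P1 replicate 3. Of 16 interferon response genes 7 rose and none fell, with a median of 0.72 (−0.31 on the TPM scale), among them Ifi27l2a (2.33) and Ifit1 (2.13), and 4 rose without P14 replicate 1. Igkc, the immunoglobulin kappa constant gene, was the one lymphoid gene of 10 that rose (3.54), with 3.26, 1.70 and 3.46 CPM at P14, against 0, 0.376 and 0.151 CPM at P1. Of 8 bone marrow myeloid and neutrophil genes edgeR called 0 (0 at an unadjusted p below 0.05, 0 called by DESeq2).

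Of 16 Wnt receptors and co-receptors, the family of Fzd1, 7 fell, 1 rose and 8 were not called, with a median of −0.74, and in control with DOX 11 fell. Fzd9 had 1.002, 2.76 and 0.865 CPM at P14, against 9.04, 11.0 and 11.8 CPM at P1 (−2.66), and the co-receptor genes Ror2 (−1.77), Lrp5 (−1.11) and Ptk7 (−1.04) fell. Fzd8 was the one that rose (0.44), and 0 rose without P14 replicates 2 or 3 or P1 replicates 1 or 2, with no filter, in a fit of the 2 groups alone and on the TPM scale. Of 20 beta-catenin targets and secreted antagonists 10 fell and 1, Sfrp4 (0.89), rose, with a median of −0.69, and 16 fell in control. Axin2, a feedback inhibitor and common readout of the pathway, had 22.5, 21.5 and 15.1 CPM at P14, against 53.7, 39.6 and 40.7 CPM at P1 (log2 fold change −1.14, SE 0.16, adjusted p = 8.86e-08). Nkd2 (−1.41), Dkk2 (−1.3), Sfrp2 (−1.22) and Frzb (−1.54), inhibitors of the pathway, fell with it. Frzb was not called without P14 replicates 1 or 2 or P1 replicate 2, without both libraries of the shared ID or on the rescaled TPM. The difference between the genotypes in the age effects of these lists was called in Fzd5 (1.15) and Sfrp1 (0.88), both above 0. That was 1 of 16 receptors and co-receptors and 1 of 20 targets and antagonists, where 3.5% of all genes were called.

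Of 10 genes of olfactory bulb neurons and central glia 3 rose and 2 fell, where 14.6% of all genes rose and 19.7% fell, and their summed level was 661.8 to 781.8 CPM at P14 and 368.6 to 428.3 CPM at P1. Eomes, a transcription factor of projection neurons of the bulb, had 20.04, 23.0 and 23.8 CPM at P14, against 2.01, 1.63 and 2.72 CPM at P1 (3.38), while the interneuron gene Gad2 fell (−0.97). Gad2 was not called without P1 replicate 1 (−0.67), in a fit of the 2 groups alone (−0.91) or without both libraries of the shared ID (−0.78). The number of the list that fell was 1 without P14 replicate 1 or P1 replicate 1. Of 13 genes of ensheathing glia and Schwann cells 2 rose, among them Fabp7 (1.44), and 4 fell, among them Ngfr (−1.36), with 2 falling without P14 replicates 1 or 2 or P1 replicate 2. Of 12 skeletal muscle genes 2 fell, Myh8 (−2.65), the perinatal myosin gene, and Acta1 (−2.1), and of 9 erythroid genes 1 fell, Hba-a1 (−1.07), which was not called with DESeq2 (−1.04, adjusted p = 0.0521), with the satellite-like share as a covariate, or without P14 replicates 1 or 3 or P1 replicates 2 or 3. Of 8 vomeronasal organ genes 1 rose and 2 fell, 4 without P1 replicate 3. Vomeronasal receptor genes, Vmn1r and Vmn2r, of which 83 and 72 were tested, had 1 called higher in each family, and 4 and 3 without P1 replicate 1. Their medians were 1.09 and 1.18, and the log2 fold change was above 0 in 76 and 66 of them. Of 7 trace amine-associated receptors 1 was called higher. The part of dissection in these values was not tested.

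More genes were called between P1 and P7 than between P7 and P14. P7 against P1 called 6281 genes (28.4%) and P14 against P7 called 213 (0.962%), 110 higher and 103 lower, with 2304 genes at an unadjusted p below 0.05. The count for P14 against P7 was 69, 17 and 116 without P14 replicates 1, 2 and 3, and 64 and 25 without P7 replicates 1 and 2, so it rests on single libraries. All 17 cartilage genes and 17 of 18 fetal growth genes were lower by P7, and 340 of 978 odorant receptors were higher. Among all genes 12.2% were higher and 16.2% lower by P7. Between P7 and P14 edgeR called 0 odorant receptors (44 at an unadjusted p below 0.05, 0 called by DESeq2), 3 mature neuron markers rose, Cnga4 (0.91), Cngb1 (0.88) and Slc17a6 (0.75), and 9 cell cycle genes fell, among them Ccnb1 (−0.84), Top2a (−0.75) and Mki67 (−0.70). At P7 only 2 of the 24 cell cycle genes were called lower than at P1, and 4 were higher. Gland products were called in different intervals, and the changes of the intervals were not tested against each other. Scgb1c1 (2.71), Gpx6 (2.36) and Vmo1 (1.98) had risen by P7, with later changes that were not called, whereas Dmbt1 (0.66, adjusted p = 0.383, by P7) and Lcn4 (3.06, adjusted p = 0.0719) were called between P7 and P14 (2.95 and 5.82). Obp2b (4.84, adjusted p = 3.66e-07, by P7 and 2.95, adjusted p = 0.00542, from P7 to P14) and Obp1b (2.74, adjusted p = 0.044, and 5.09, adjusted p = 5.49e-05) were called in both intervals. Obp2b had 5.03, 5.76 and 1.96 CPM at P3, 143, 353 and 8.48 CPM at P7 and 992, 1072 and 722 CPM at P10, with the 3 libraries of P7 spread over the whole range from P3 to P10. Chil4 rose between P7 and P14 (3.71), and H2-Ab1 (2.07) and Cd74 (1.9) did. All 3 libraries at P3 share 1 title ID, and P3 was compared with no other age.

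**Figure D5:**
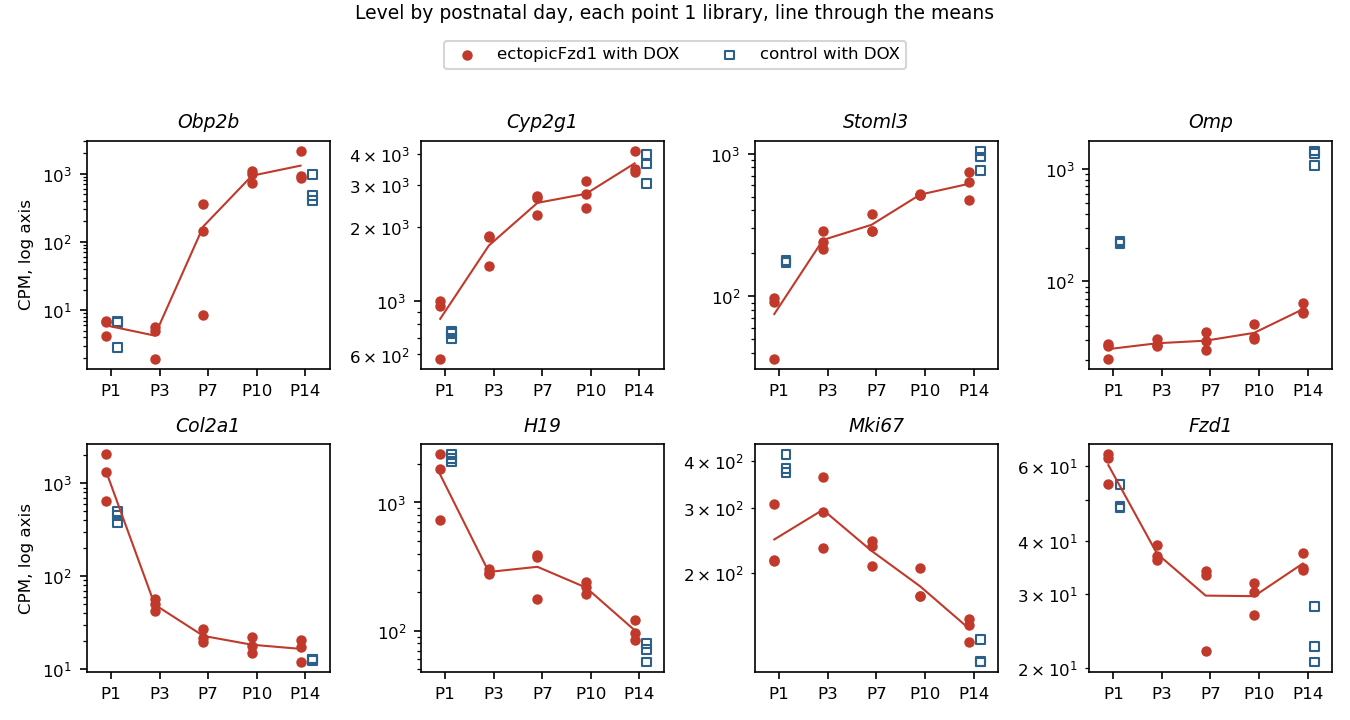
Level of 8 genes as CPM on a log axis by postnatal day in ectopicFzd1 with DOX (red, line through the means of 3 libraries) and at P1 and P14 in control with DOX (blue squares). Omp stays between 20.6 and 63.6 CPM at every age in ectopicFzd1 with DOX and lies far below control, Col2a1 and H19 are highest at P1, and Obp2b is low at P1 and P3.

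The age effect in the ectopicFzd1 line differed from that in control with DOX in 774 genes (3.5%), 311 above (1.4%) and 463 below 0 (2.09%). This count was 270 without P1 replicate 1 of the ectopicFzd1 line and 1547 without P1 replicate 3, and 395 and 489 without P14 replicates 1 and 2. In control it was 318 and 458 without P1 replicates 1 and 2, and 404 and 467 without P14 replicates 2 and 3. The genes of smallest p were Nfya, Spice1 (−1.62), Ttll10 (−1.68), Heatr5b (−1.11), Zmynd8 (−1.46) and Armc2 (−1.34), all below 0. Nfya, which encodes a subunit of nuclear factor Y, had 32.1, 37.8 and 31.1 CPM at P14, against 51.2, 49.9 and 38.7 CPM at P1 in the ectopicFzd1 line, and 38.3, 37.1 and 34.4 CPM at P14 and 17.7, 14.9 and 12.6 CPM at P1 in control (difference −1.73, SE 0.21, adjusted p = 1.08e-06). Spice1, a centriole gene, had 41.3, 52.1 and 48.0 CPM at P14, against 36.2, 40.9 and 36.3 CPM at P1 in the ectopicFzd1 line, and 48.0, 54.9 and 56.5 CPM at P14 and 14.6, 13.8 and 13.1 CPM at P1 in control. Armc2, a gene of cilia and flagella, had 55.4, 52.1 and 54.9 CPM at P14, against 41.9, 39.6 and 39.0 CPM at P1 in the ectopicFzd1 line, and 64.2, 59.1 and 56.5 CPM at P14 and 17.4, 18.1 and 17.2 CPM at P1 in control. In all 6 genes the P1 control libraries were the lowest of the 4 groups and overlapped none of the others. Reads outside genes made up 44.0% to 62.2% at P1 in the ectopicFzd1 line and 42.5% to 49.0% at P1 in control, and their part in these differences was not tested.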

How the data were processed

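Total RNA of olfactory epithelium was sequenced from stranded libraries after removal of ribosomal RNA, per the labels' protocols. Per the submitters' processing notes, the authors used bcl2fastq 2.18, STAR 2.6.1c, RSEM and the mouse build mm10. Whole-number read counts per gene were deposited in 1 table, and TPM values that the authors computed in another. Whether strand was used in counting, and which annotation release, is not given in the sources used here, so overlapping, antisense and near-identical genes are uncertain. Rows that name no gene were left out of library sizes. Of 54532 gene IDs, 54409 matched GENCODE M21, which gave the positions.

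Counts were fitted in R 4.3.3 with edgeR 4.0.16. filterByExpr kept 22144 genes, library sizes were scaled by TMM, and 1 quasi-likelihood fit with a coefficient for each group took in all 72 libraries, so that the groups share 1 estimate of the spread. Contrasts were P14 against P1, P7 against P1 and P14 against P7 in ectopicFzd1 with DOX, P14 against P1 in control with DOX, and the difference of the 2 age effects. Adjusted p-values are Benjamini-Hochberg values over all genes tested. The 32 gene lists are described by counts and medians and were not tested as sets, and the symbols Cyp2c44, Lcn13, Lcn14 and Ahsp had no row. The members and lists were chosen with earlier results of these data known.

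Genes named are Fzd1 and Omp, the 12 largest rises and falls among called genes with a mean of at least 2 CPM, no overlap between the groups and no symbol of a predicted gene, clone, pseudogene or odorant or vomeronasal receptor, up to 4 called members of each list with the largest change, members that the text counts, 4 odorant receptors per direction and the 6 genes of smallest p of the difference. Other members of a list that are named were chosen after their values were seen, as examples of its roles. Counts of 22144 genes were simulated with a dispersion of 0.05 and 200 genes changed at P14 in the ectopicFzd1 line with DOX. Of 50, 100 and 50 genes changed by 0.5, 1 and 2 (log2), edgeR called 0%, 31.0% and 96.0% in P14 against P1. In the difference of age effects it called 0%, 2.00% and 60.0% of them. Far more genes were called in the data, 7610 in P14 against P1, so these shares need not hold there.

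As alternatives, DESeq2 1.42.0 was run, edgeR was run with DESeq2 size factors, without a filter and with a minimum mean of 1 CPM, and further settings were a fit of the groups compared alone, limma 3.58.1 on log2 TPM with pseudocounts of 1 and 0.1, the satellite-like genes removed or their share as a covariate, leaving out each library, and leaving out both libraries of the shared ID. limma on log2(TPM + 1) after dividing TPM by size factors was added after seeing the data. Intervals on shares are 95% Wilson intervals. Samples of other groups entered only the shared fit. Values of a few list members are not reported here.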

Additional observations from a re-analysis of the deposited data

Results flagged for a closer look

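Of the genes named for the size of their change or the p of the difference, 13 had a difference between the age effects of the genotypes that was itself called by edgeR (P14 over P1 in ectopicFzd1 with DOX minus the same in control with DOX, on the log2 scale), and further list members with a called difference, such as Cdk1 (1.43), stand with their lists above. It was above 0 in the cell cycle genes Birc5 (1.24), Foxm1 (1.04) and Mki67 (0.90), in Mmp13 (2.13) and in Rprl2 (7.58). It was below 0 in Nfya (−1.73), Ttll10 (−1.68), Spice1 (−1.62), Olig1 (−1.51), Zmynd8 (−1.46), Dpysl5 (−1.43), Armc2 (−1.34) and Heatr5b (−1.11). Rprl2, a ribonuclease P RNA gene with several copies, had 10.02, 17.005 and 54.0 CPM at P14, against 3.52, 0 and 0.151 CPM at P1 in the ectopicFzd1 line, and 15.8, 7.06 and 13.1 CPM at P14 and 5.21, 4.68 and 238 CPM at P1 in control, with 1 control library at P1 far above the others. Olig1, a transcription factor of glia and progenitors, had 41.1, 42.5 and 41.5 CPM at P14, against 18.1, 20.9 and 26.3 CPM at P1 in the ectopicFzd1 line, and 51.5, 53.6 and 51.3 CPM at P14 and 9.20, 9.36 and 10.5 CPM at P1 in control. Dpysl5 had 43.8, 53.6 and 59.6 CPM at P14, against 154, 128 and 80.3 CPM at P1 in the ectopicFzd1 line, and 60.0, 66.9 and 67.0 CPM at P14 and 41.5, 52.9 and 71.98 CPM at P1 in control; P1 replicate 1 of the ectopicFzd1 line was highest.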

How the results depend on the processing

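No paired analysis was possible because the labels give no replicate numbers. Leaving out 1 library gave 6047 (without P14 replicate 2) to 7766 calls (without P1 replicate 3) in P14 against P1, 6977 to 7608 in control, 270 to 1547 in the difference of age effects, 4522 to 6675 in P7 against P1 and 17 to 287 in P14 against P7. In P14 against P1, 7610 calls became 4653 in a fit of the 2 groups alone, 13400 with limma on log2(TPM + 1) and 12335 with a pseudocount of 0.1. The 6281 calls of P7 against P1 became 3253, 11278 and 9487 under the same settings. The 774 calls of the difference became 1181 with DESeq2 size factors, 1166 with DESeq2, 379 with no filter, 286 in a fit of the 4 groups alone, 119 and 4 on the TPM scales, 1486 with the satellite-like share as a covariate, 376 without both libraries of the shared ID and 416 with rescaled TPM. The 213 calls of P14 against P7 became 371 with DESeq2 size factors, 384 with DESeq2, 11 and 5 on the TPM scales, 489 with the covariate, 61 without both libraries of the shared ID and 117 with rescaled TPM. The cause was not tested, but for fewer genes or samples in a fit. On the TPM scales the fold changes of Agr2 (−0.0911 and −0.0921), Aqp4 (−0.0295 and −0.0305), Bpifa1 (−0.0597 and −0.0597), Gap43 (−0.0702 and −0.0710), Olig1 (−0.1461 and −0.1610) and Tubb3 (−0.3908 and −0.3936) reversed, with pseudocounts of 1 and 0.1, and the receptor share differed by −3.93e-05 percentage points. Of 136 named genes 133 kept direction and call with DESeq2, 126 in a fit of the groups alone and 123 to 130 without any 1 of the 6 libraries. With 3 libraries per group, changes of 0.5 on the log2 scale were not recovered in simulated counts. In the data, where more genes were called, smaller changes were called in some genes.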
